A study of Homo sapiens with 1 sample.

Results

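The integrin and laminin chains were followed through the cell states of a human neural progenitor cell (NPC) culture by single-cell RNA-seq. The members were all genes whose symbol names an integrin alpha chain (ITGA with a number or letter), an integrin beta chain (ITGB) or a laminin alpha, beta or gamma chain (LAMA, LAMB, LAMC), which were 38 of the 33538 genes listed, 26 integrin and 12 laminin chains. The cells came from H9, an established human embryonic stem cell line, with genotype WT, labelled hHAR123 because they keep the human sequence of HAR123, a human accelerated region inside the gene SMG6. They had been driven towards NPCs in N2 medium with the inhibitors Dorsomorphin and SB431542, first attached and with a ROCK inhibitor added, then as rotating embryoid bodies. They had then been replated on Matrigel, a basement membrane extract rich in laminin, in medium with N2 and Gem21. Harvest came shortly before rosettes were selected, dead cells were removed, and independent clones went into 1 pool.

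Integrins are receptors built of an alpha and a beta chain that hold a cell to the matrix around it, and through linker proteins at focal adhesions they tie that matrix to the actin cytoskeleton. Laminins are the matrix proteins that nucleate a basement membrane, and each is a trimer of an alpha, a beta and a gamma chain. In the developing neural tube the apical progenitors touch such a membrane with their basal side.

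The library held 14726 barcodes and 327640709 unique molecular identifiers (UMIs, counts of single captured molecules). The 13925 cells with 2000 to 10000 detected genes and a mitochondrial share below 0.1 were kept, with a median of 17900 UMIs. Contractile cells were those with at least 5 UMIs of ANXA1, TFPI2 and CTGF together per 10000, newborn neuron-like cells those with at least 5 UMIs of STMN2, ELAVL3, ELAVL4, INSM1 and NHLH1 together per 10000, and the rest were called progenitor cells. This gave 12210 progenitor, 1584 contractile and 131 newborn neuron-like cells, and the 27 cells that met both rules were counted as contractile. Within 1 UMI per 10000 of the limit lay 89 cells below and 72 above for the contractile rule, and 28 below and 14 above for the neuronal rule. Depth differed between the states, with medians of 16960.5 UMIs per progenitor cell, 47217 per contractile cell and 13271 per newborn neuron-like cell.

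The state names were set against genes that the rules did not use. All 6 contractile markers (TAGLN, ACTA2, MYL9, TPM1, CNN1, CALD1) were at least 2-fold higher in contractile than progenitor cells, and their summed level was 14592 against 2190.5 UMIs per 1000000 UMIs of the state (CPM). Of 7 further neuronal markers, 4 had enough UMIs to compare (DCX, GAP43, MAPT and INA), and all 4 were at least 2-fold higher in newborn neuron-like cells, DCX with 789 against 66.3 CPM. GAP43 was at 145 CPM in contractile and 132 CPM in newborn neuron-like cells, against 17.1 CPM in progenitor cells. The 6 neural progenitor markers did not move together. By CPM SOX2, PAX6, HES1 and SOX1 were lower in contractile than progenitor cells, SOX2 with 117 against 414 CPM. HES1 had a ratio of 0.796, near the median of 0.76 over all genes compared, and of 1.99 by UMIs per cell. The filament genes NES (666 against 239 CPM) and VIM (4302 against 908 CPM), which mesenchymal cells also use, were higher. The list therefore summed to 5202 against 1788 CPM. The 5 markers of neural crest and mesenchyme summed to 17.6 CPM in progenitor and 86.2 CPM in contractile cells, of which COL1A2 made 68.7 CPM. Their contractile to progenitor ratios were 8.37 for COL1A2, 14.7 for TWIST1, 5.53 for LUM and 1.06 for PRRX1. DCN had 14 UMIs in progenitor cells and no UMI in contractile cells, too few to compare. The 3 endothelial markers summed to 4.76 and 14.3 CPM, with ratios of 4.42 for CDH5, 2.99 for TEK and 0.884 for PECAM1. The part of crest, mesenchymal or endothelial cells in the results below was not tested. The platelet genes PF4, GP9 and PPBP had no UMI in any state.

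With 1 library and no replicate, differences between states could not be tested, and they are given as sizes with intervals. Levels are pooled CPM with exact 95% Poisson intervals, ratios carry exact conditional intervals, and shares of cells carry exact binomial (Clopper-Pearson) intervals. All of these cover counting error only, and cells of 1 library are not replicates. Counts were not scaled to transcript length, so a level was compared between states for the same gene, not between genes.

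Promoters of members that were higher in contractile cells are shown, because CTGF, a gene of the contractile rule, is a textbook target of TEAD factors, as many contractile genes are of serum response factor. The sequences are the 250 bases before the transcription start, from RefSeq on GRCh38.p14, where 26 of the 38 members had an entry. Capitals mark the TEAD letters GGAATG on either strand. ITGA5 (chr12:54419267-54419516, minus strand) and 1 of the 2 listed starts of ITGB1 (chr10:32958231-32958480, minus strand) held a match, whose first letter as printed lay 82 and 182 bases before the start. LAMB1 (chr7:108003162-108003411, minus strand) and the first listed start of ITGAV (chr2:186589806-186590055, plus strand) held none.
ITGA5: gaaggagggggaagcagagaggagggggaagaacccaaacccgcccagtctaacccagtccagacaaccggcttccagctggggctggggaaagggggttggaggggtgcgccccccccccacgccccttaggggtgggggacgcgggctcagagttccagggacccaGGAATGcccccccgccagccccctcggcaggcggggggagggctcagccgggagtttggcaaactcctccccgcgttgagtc
ITGB1: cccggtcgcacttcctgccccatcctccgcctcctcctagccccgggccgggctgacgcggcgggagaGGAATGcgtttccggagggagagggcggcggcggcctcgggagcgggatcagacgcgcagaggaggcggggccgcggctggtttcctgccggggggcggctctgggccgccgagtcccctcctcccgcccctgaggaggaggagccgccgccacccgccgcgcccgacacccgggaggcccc
LAMB1: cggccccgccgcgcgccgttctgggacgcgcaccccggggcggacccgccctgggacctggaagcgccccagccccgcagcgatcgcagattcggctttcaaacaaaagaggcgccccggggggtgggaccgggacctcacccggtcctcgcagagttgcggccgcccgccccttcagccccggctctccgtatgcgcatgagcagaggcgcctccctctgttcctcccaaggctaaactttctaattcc
ITGAV: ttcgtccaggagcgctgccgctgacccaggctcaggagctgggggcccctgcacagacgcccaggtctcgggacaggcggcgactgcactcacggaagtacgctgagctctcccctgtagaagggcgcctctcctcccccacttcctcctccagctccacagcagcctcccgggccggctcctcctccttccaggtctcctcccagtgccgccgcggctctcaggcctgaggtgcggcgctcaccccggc
The 26 members had 33 windows, as some have several starts. The TEAD letters were found in 4 of the 33 (of ITGA10, ITGA5, ITGB1 and LAMA2), 12.1%, and in 11.9% of all 35116 promoter windows of this length. The AP-1 letters TGANTCA stood in 2 of the 33, of LAMA3 and LAMB3, and in 6.57% of all windows. The CArG box of serum response factor stood in 1 of the 33, of ITGB6, and in 1.16% of all windows. A match is a description of letters and shows no binding.

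Contractile cells held more integrin transcript than progenitor cells, 2.38-fold by CPM and 5.97-fold by UMIs per cell. The 26 integrin chains summed to 654 CPM (650.4 to 657) in progenitor cells, 1558 CPM (1549 to 1567) in contractile cells and 520.3 CPM (489 to 553) in newborn neuron-like cells. Laminin chains rose less, from 312 to 439 CPM, and were lowest in newborn neuron-like cells at 166 CPM. The laminin sum hid opposite directions by CPM, since its alpha chains, mostly LAMA1, went from 116 to 57.0 CPM in contractile cells while its beta chains, mostly LAMB1, went from 39.2 to 166 CPM and its gamma chains from 157 to 216 CPM. Single chains of a class differed, and the median ratio was 1.17 over the alpha and 0.728 over the beta chains compared. By UMIs per cell the alpha sum had a ratio of 1.23.

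A member was compared where at least 10 UMIs would be expected in the smaller state at equal levels, which 32 members met for contractile cells. ITGAD, ITGAX, ITGB3, ITGB6, ITGB7 and LAMB3 did not. Of the 32, 12 were at least 2-fold higher in contractile cells (37.5%, against 8.04% of the 21076 genes compared), and 4 were at least 2-fold lower (12.5%, against 25.5% of the genes compared). The median ratio of the members was 1.43, beside 0.76 over all genes compared, a shift of all genes of -0.40 on the log2 scale. By UMIs per cell, where contractile cells held 2.51 times the UMIs of progenitor cells, 23 members were at least 2-fold higher, as were 46.5% of the genes compared, and none was 2-fold lower. Only LAMA1 and ITGA2B among the 32 stayed below a ratio of 1 on both scales. Integrins and laminins are thus given below by CPM, with the ratio by UMIs per cell where it changes the direction of a member described singly.

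**Figure D1:**
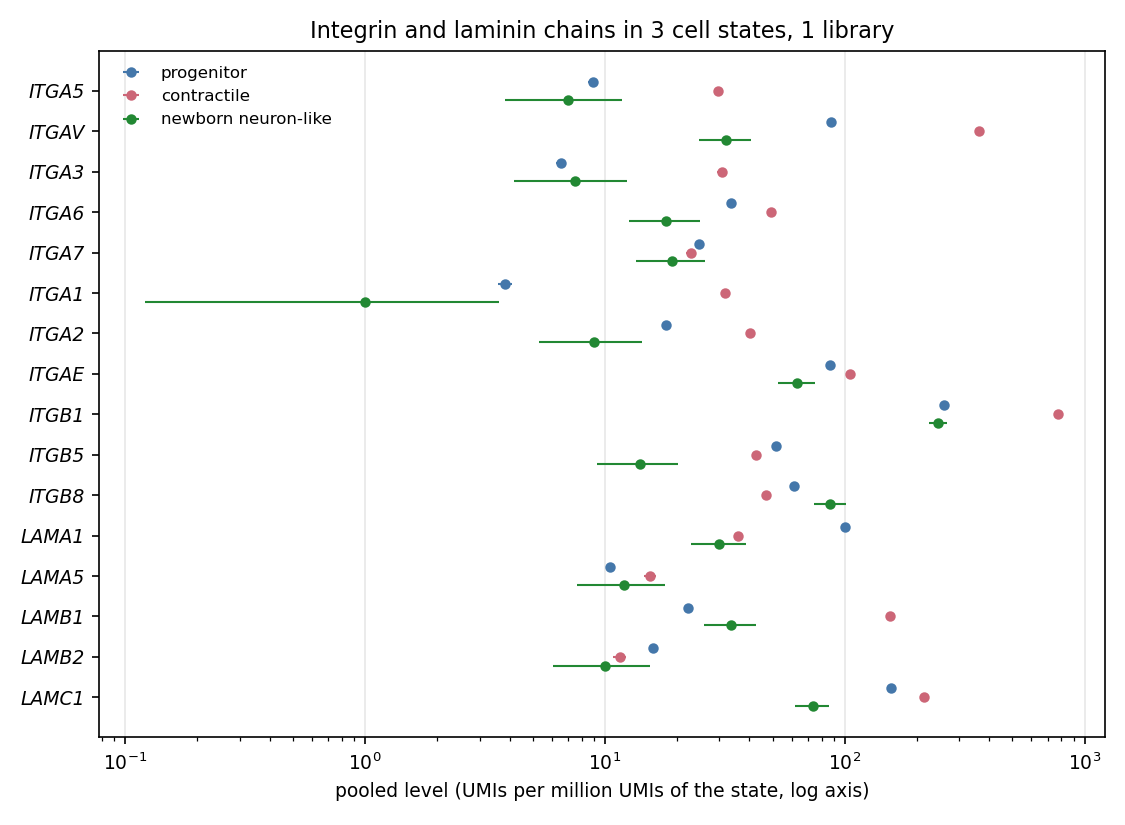
Pooled level in CPM (log axis) of the 16 members that reached 10 CPM in at least 1 state, in progenitor, contractile and newborn neuron-like cells of 1 library; bars are exact 95% Poisson intervals, which cover counting error only and are often narrower than the point. The contractile points of ITGAV, ITGB1 and LAMB1 lay far to the right of their own progenitor points, while LAMA1 was at 99.9 CPM in progenitor cells and at 35.7 and 29.96 CPM in the other states.

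The alpha chains that bind ligands with the RGD motif, such as vitronectin and fibronectin, included ITGAV, which pairs with several beta chains and also releases latent TGF-beta. ITGAV stood at 87.5 CPM in progenitor, 363.5 CPM in contractile and 32.0 CPM in newborn neuron-like cells. Its contractile level was 4.15-fold (4.08 to 4.23) the progenitor level, and its neuronal level was 0.365 (0.281 to 0.466) of it. Among cells with 20000 to 60000 UMIs these ratios were 3.52 and 0.680. ITGA5, the alpha chain of the classical fibronectin receptor, went from 8.89 to 29.6 CPM in contractile cells, a ratio of 3.33 (3.14 to 3.54). Its neuronal level was 6.99 CPM, a ratio whose interval held 1 (0.429 to 1.32). ITGA2B, the platelet chain, went the other way, from 918 UMIs and 3.89 CPM in progenitor cells to 94 UMIs and 1.23 CPM in contractile cells, a ratio of 0.315 (0.252 to 0.390).

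ITGA8 was rare, with 33 UMIs in progenitor and 8 in contractile cells. Newborn neuron-like cells held 7 ITGA8 UMIs in 4 of 131 cells, 24.99-fold (9.33 to 57.4) the progenitor level. It was below the limit for a comparison there and is named after its value was seen.

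The 3 laminin-binding alpha chains did not move together. ITGA3, which pairs with ITGB1 in epithelia and at the pial surface, went from 6.56 to 30.7 CPM in contractile cells, a ratio of 4.68 (4.39 to 4.99). ITGA6, a receptor chain long used as a mark of neural stem cells, went from 33.6 to 49.0 CPM, a ratio of 1.46 (1.40 to 1.52). ITGA7, best known from muscle, was at 24.6 CPM in progenitor and 22.8 CPM in contractile cells, a ratio of 0.926 (0.878 to 0.978) that became 2.32 by UMIs per cell and 1.22 after division by the median ratio of all genes. The newborn neuron-like cells had ITGA6 at 18.0 CPM, 0.535 (0.374 to 0.741) of its progenitor level, while the intervals of ITGA3 and ITGA7 held 1.

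All 4 collagen-binding alpha chains were at least 2-fold higher in contractile cells, as were 8.04% of all genes compared. ITGA1, a receptor chain for collagen IV and for laminin that smooth muscle carries, went from 3.83 to 31.7 CPM, a ratio of 8.28 (7.67 to 8.95). ITGA11, a receptor chain for fibrillar collagen in mesenchymal cells, was at 0.585 CPM in progenitor and 4.71 CPM in contractile cells, a ratio of 8.05 (6.59 to 9.86). ITGA2 went from 18.0 to 40.1 CPM, a ratio of 2.23 (2.12 to 2.33), and ITGA10 had 74 and 50 UMIs, a ratio of 2.08 (1.42 to 3.02). Limits applied to this group. ITGA1 had a ratio of 5.84 among cells with 20000 to 60000 UMIs. ITGA2 lay under 2-fold when each cell was thinned to 5000 UMIs (1.82), by the mean of each cell's own CPM (1.72), among cells with 20000 to 60000 UMIs (1.96) and with states taken from clusters (1.98). ITGA10 was not 2-fold higher by the mean of each cell's own CPM. ITGA1 (chr5:52787916-52959209, plus strand, GENCODE 44 on GRCh38) overlaps PELO on its own strand, so reads of the overlap could belong to either gene.

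Of the remaining alpha chains, ITGA4, which migrating crest and blood cells use to bind fibronectin and VCAM1, went from 1.28 to 4.68 CPM, a ratio of 3.66 (3.13 to 4.27). ITGA9 had a ratio of 1.57 (1.42 to 1.73). Among the 7 chains of leukocyte integrins nearly all UMIs were of ITGAE, the chain that with ITGB7 binds E-cadherin on epithelia. ITGB7 had 5, 1 and 0 UMIs in progenitor, contractile and newborn neuron-like cells, and the E-cadherin gene CDH1 had 43, 15 and 1. ITGAE was at 86.4 CPM in progenitor, 104.6 CPM in contractile and 62.9 CPM in newborn neuron-like cells, ratios of 1.21 (1.18 to 1.24) and 0.728 (0.606 to 0.867). The gene (chr17:3714628-3801188, minus strand) overlaps HASPIN on the opposite strand, and the strand used for counting was not given in the sources used here. Other named members have such overlaps too, among them LAMB1 (with DLD), ITGA7 (with BLOC1S1 and METTL7B) and LAMA5 (with ADRM1). The other leukocyte chains were scarce, with at most 116 UMIs in any state. ITGB2 had 116 and 17 UMIs, a ratio of 0.451 (0.254 to 0.753) that was 1.13 by UMIs per cell. ITGAM was higher in contractile cells on 29 against 14 UMIs. The leukocyte markers PTPRC, CD53, LAPTM5 and CORO1A summed to 8.40 CPM in progenitor and 4.07 CPM in contractile cells, most of it CORO1A.

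Of the 4 matrix-binding beta chains compared, ITGB1 alone was higher in contractile cells by CPM. ITGB1, the shared partner of most matrix-binding alpha chains, was at 259 CPM in progenitor, 776 CPM in contractile and 245 CPM in newborn neuron-like cells. Its contractile ratio was 3.00 (2.97 to 3.03), or 2.59 among cells with 20000 to 60000 UMIs, and its neuronal ratio of 0.948 (0.866 to 1.04) held 1. ITGB5, a vitronectin receptor chain that pairs with ITGAV, was at 51.8, 42.8 and 14.0 CPM in the same order. ITGB8, the radial glial chain that pairs with ITGAV to release TGF-beta, was at 61.5, 47.0 and 86.9 CPM. Neither reached 2-fold in contractile cells, with ratios of 0.826 (0.795 to 0.859) for ITGB5 and 0.764 (0.736 to 0.792) for ITGB8, and both exceeded 1 by UMIs per cell (2.07 and 1.92) and after division by the median ratio of all genes (1.09 and 1.01). ITGB4, the hemidesmosome chain, had 56 progenitor and 8 contractile UMIs, a ratio of 0.439 (0.181 to 0.927) that was 1.10 by UMIs per cell.

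Laminin chains changed in their make-up. LAMA1, the alpha chain of the first embryonic laminin (chr18:6941742-7117797, minus strand), was at 99.9 CPM in progenitor and 35.7 CPM in contractile cells, a ratio of 0.358 (0.344 to 0.372), and at 0.896 by UMIs per cell. LAMB1, its usual beta chain (chr7:107923799-108003213, minus strand), went from 22.1 to 153.7 CPM, a ratio of 6.94 (6.72 to 7.18). Among cells with 20000 to 60000 UMIs the LAMB1 ratio was 5.20. LAMC1, the gamma chain that most laminins share, went from 156 to 214 CPM, a ratio of 1.37 (1.35 to 1.40). The alpha and beta chains of the same trimer thus moved in opposite directions by CPM.

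The alternative chains changed less. LAMA5, the alpha chain that follows LAMA1 in many basement membranes, went from 10.5 to 15.5 CPM, a ratio of 1.48 (1.38 to 1.58). LAMB2, the beta chain of synaptic and vascular laminins, was at 15.8 and 11.5 CPM, a ratio of 0.728 (0.676 to 0.784) that turned to 1.83 by UMIs per cell. LAMA2 had a ratio of 1.27 (1.07 to 1.49). The intervals of LAMA4 (1.17, 0.976 to 1.40) and LAMC3 (1.41, 0.727 to 2.61) held 1. LAMA3 and LAMB4 had ratios of 0.588 (0.448 to 0.762) and 0.570 (0.417 to 0.766), which became 1.47 and 1.43 by UMIs per cell.

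**Figure D2:**
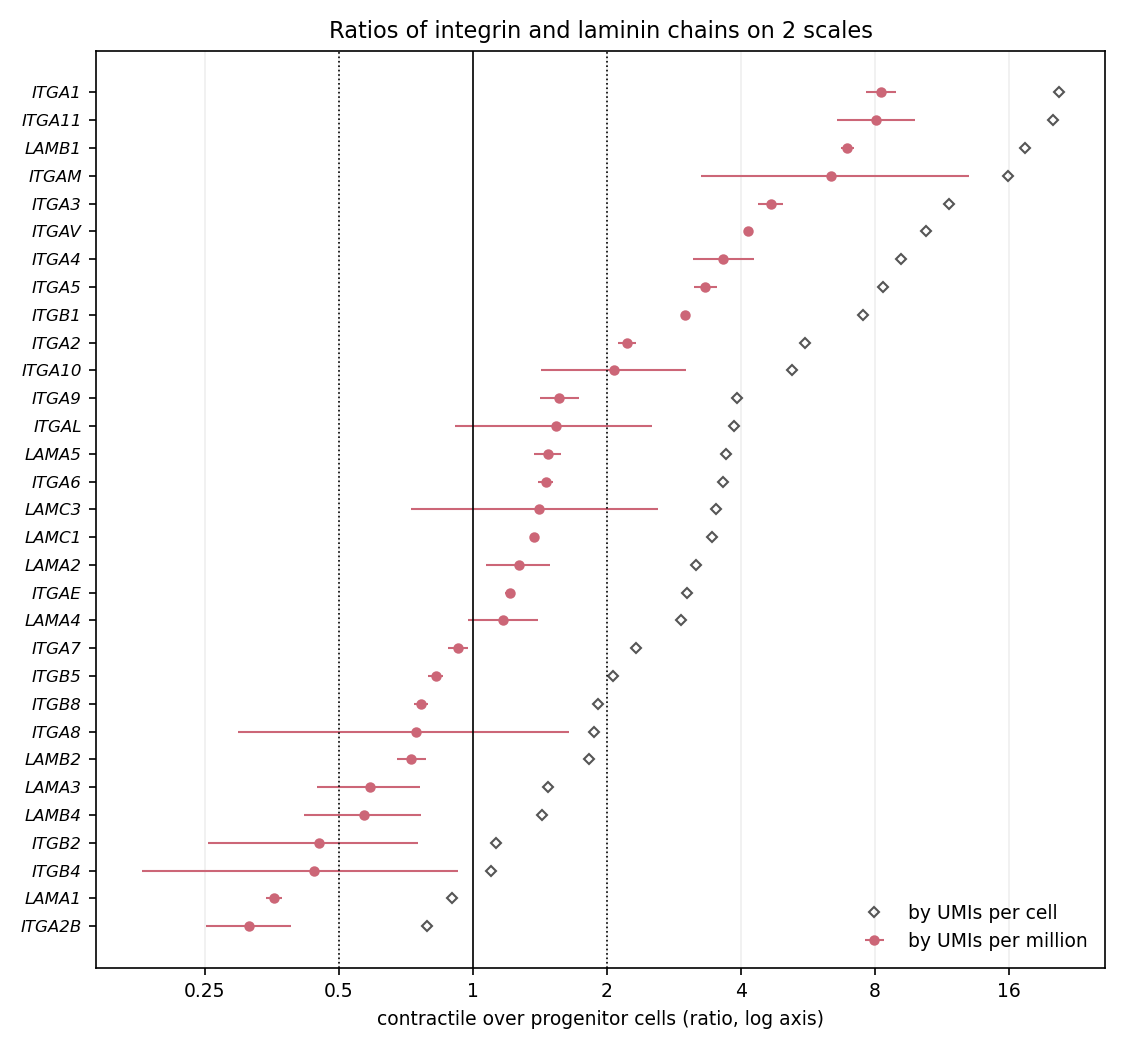
Ratio of contractile over progenitor cells (log axis) for the members compared and reported here, as points with exact 95% intervals by CPM and as open diamonds by UMIs per cell; dotted lines mark 2-fold up and down. By CPM ITGA1, ITGA11 and LAMB1 lay furthest above the upper line and LAMA1 and ITGA2B furthest below the lower one, and by UMIs per cell LAMA1 and ITGA2B alone lay under 1.

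In newborn neuron-like cells, which held 0.637% of the UMIs, 16 members could be compared. None of the 16 was at least 2-fold higher (5.36% of the 11860 genes compared were), and 5 were at least 2-fold lower, 31.2% of the members against 11.2% of the genes compared. These were ITGAV, ITGA2, ITGB5, LAMA1 and LAMC1. With the neuronal limit at 3 in place of 5 UMIs per 10000, which gave 214 cells, none of the 5 was 2-fold lower, and their ratios lay between 0.528 (LAMA1) and 0.818 (ITGA2). The median ratio of the 16 members was 0.749, beside 0.919 over all genes compared, a shift of all genes of -0.12. LAMA1 was at 29.96 CPM, 0.300 (0.229 to 0.386) of the progenitor level, and ITGB5 at 0.270 (0.179 to 0.390). LAMC1 was at 73.4 CPM, a ratio of 0.472 (0.398 to 0.555), and ITGA2 had 18 UMIs, a ratio of 0.499 (0.295 to 0.789).

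Several chains kept or exceeded their progenitor level in the neuronal cells. ITGB8 had a ratio of 1.41 (1.21 to 1.64) and LAMB1 of 1.51 (1.17 to 1.92). Both lay below 1, at 0.927 and 0.809, among the 19 newborn neuron-like cells with 20000 to 60000 UMIs, where 10 members could be compared and none of these was 2-fold lower, beside 5.78% of the genes compared there. ITGA2 had too few UMIs for that comparison, with a ratio of 0.441, while ITGAV was at 0.680 and LAMA1 at 0.549. Chains without a UMI in these cells cannot be counted as absent, since 3 UMIs of this small state already make 1.498 CPM.

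Levels followed the contractile score through cells on both sides of the limit. Cells outside the newborn neuron-like state were placed in 6 bands of ANXA1, TFPI2 and CTGF per 10000 UMIs, from 10869 cells below 1 to 739 cells at 20 or more. LAMB1 was at 18.2, 30.5, 66.7, 93.7, 138 and 181 CPM from the lowest to the highest band. LAMA1 was at 103, 89.3, 67.3, 46.7, 38.6 and 30.7 CPM over the same bands. By CPM both chains therefore changed in every step. By UMIs per cell LAMB1 was higher in every step, from 0.339 to 9.94, whereas LAMA1 went from 1.92 to 2.04 over the first 3 bands and was at 1.69 in the highest. The LAMB1 UMIs per LAMA1 UMI went from 0.176 to 5.89.

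ITGAV went from 80.1 to 422 CPM, ITGB1 from 245 to 897 CPM and ITGA1 from 3.42 to 41.2 CPM between the lowest and the highest band, each higher in every band than in the one before. By CPM ITGB5 had its highest level in the middle, with 50.2 CPM in the lowest band, 63.3 CPM between scores of 2 and 5, and 36.7 CPM in the highest. In UMIs per cell ITGB5 went from 0.936 in the lowest band to 2.12 between scores of 10 and 20, and was at 2.02 in the highest. By CPM ITGA2 was lowest between scores of 2 and 5 (13.1 CPM) and reached 48.7 CPM in the highest band. Median depth went with the score, from 16625 to 53588 UMIs. Among cells with 20000 to 60000 UMIs, LAMB1 per LAMA1 went from 0.186 in the lowest to 4.75 in the highest band.

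**Figure D3:**
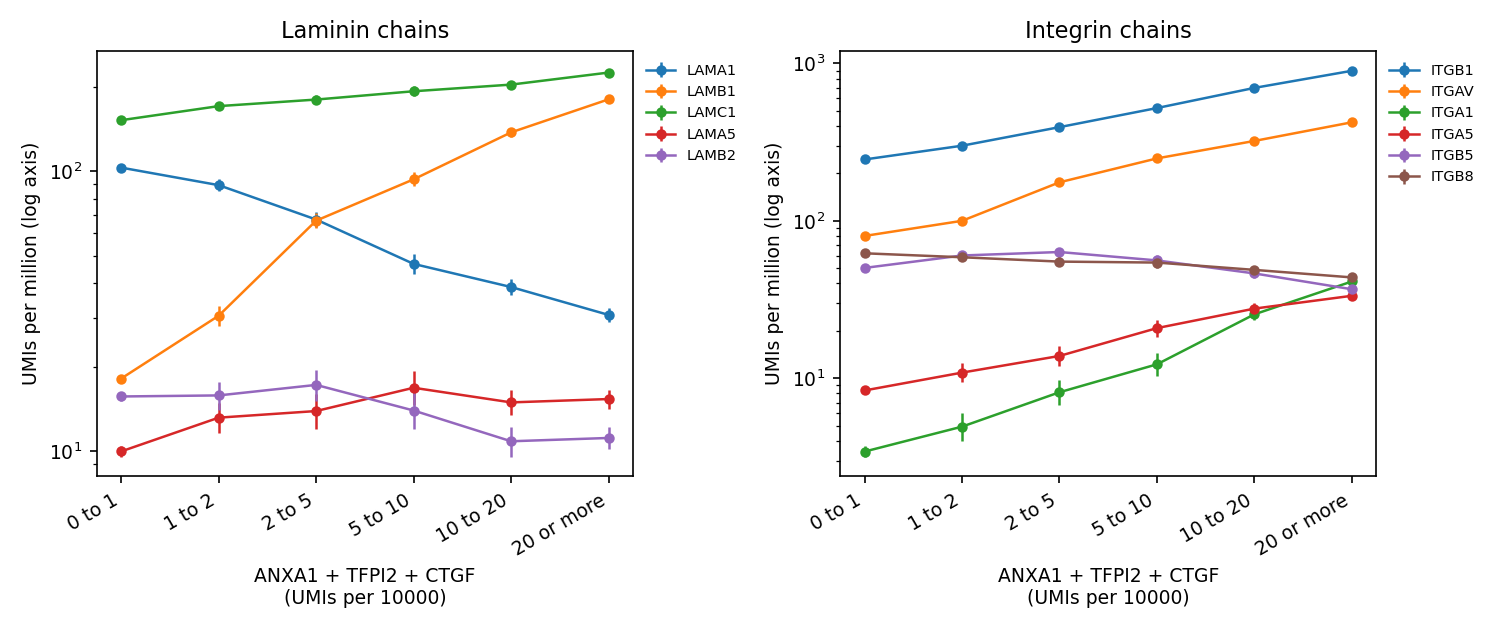
Pooled CPM (log axis) of laminin chains on the left and integrin chains on the right in 6 bands of the contractile score, the summed UMIs of ANXA1, TFPI2 and CTGF per 10000; bars are exact 95% Poisson intervals. The LAMA1 line fell in every step and the LAMB1 line rose in every step, while ITGB5 had its highest level between scores of 2 and 5; heights of different genes are not to be compared, since UMIs were not scaled to length.

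Shares of cells with UMIs of every chain of a complex differed between states. ITGAV and ITGB1 were both found in 66.3% of progenitor cells (65.5 to 67.1%), 94.5% of contractile cells (93.3 to 95.6%) and 26.7% of newborn neuron-like cells (19.4 to 35.2%). After thinning to 5000 UMIs, which left out 24, 3 and 1 cells, the shares were 20.8%, 64.6% and 3.08%, the last from 4 cells (0.845 to 7.69%). Taken singly in thinned cells, ITGAV was found in 30.8% of progenitor and 68.6% of contractile cells, and ITGB1 in 68.7% and 92.0%. Whether the chains of a complex met more often than their single shares give was not tested. ITGA1 and ITGB1 were found together in 1.12% of thinned progenitor and 11.0% of thinned contractile cells. UMIs of LAMA1, LAMB1 and LAMC1 together were found in 19.7%, 63.2% and 6.11% of the cells. After thinning the shares were 1.58%, 4.68% and 2.31%, the last from 3 cells (0.478 to 6.6%). Singly in thinned cells, LAMB1 was found in 8.66% of progenitor and 44.8% of contractile cells, and LAMC1 in 48.5% and 58.6%. With LAMB2 in place of LAMB1, all 3 chains were found in 17.5% of progenitor and 28.7% of contractile cells. After thinning this order turned, with 1.49% and 0.506%. LAMA1 alone was found in 73.8% of progenitor and 68.2% of contractile cells, and in 36.2% and 15.5% after thinning. Its share thus fell further apart at equal depth, and the order was that of the CPM. No cell type known to lack these chains was in the culture to give a background share, and the share of ITGA1, 1.53% of newborn neuron-like cells, was the lowest of the named members.

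Clustering without the rules gave 10 clusters, of which 3 and 8 had a pooled contractile score above the limit and cluster 10 a pooled neuronal score above it. Clusters are described by number, and differences between them are no test, since the clusters were made from 2000 variable genes of the same counts. Cluster 3 (1731 cells, led by CALCR, COL8A1 and FLI1) held 1383 of the 1584 contractile cells, and cluster 8 (169 cells, led by RYR2, AC106864.1 and S100A16) held 96. Their integrins and laminins differed. ITGAV was at 346 CPM in cluster 3 and 36.7 CPM in cluster 8, LAMB1 at 145 and 34.5 CPM, and ITGB1 at 737 and 248.9 CPM. LAMA1 was at 39.5 CPM in cluster 3 and at 8.35 CPM in cluster 8, its lowest level in any cluster, while ITGAE was highest in cluster 8, at 174 CPM. Cells of cluster 8 were shallow, with a median of 9615 UMIs against 47570 in cluster 3, and the part of depth in this difference was not tested.

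Among the progenitor clusters, cluster 7 (922 cells, led by CPNE4, FGF17 and STMN4) had the highest LAMB1, 44.4 CPM, and the highest ITGB1, 337 CPM, with LAMA1 at 67.4 CPM. Its ITGAV (110.7 CPM) was below that of cluster 6 (113.7 CPM), and its ITGA2 was the lowest of the progenitor clusters, 10.2 CPM. LAMA1 was lower still in cluster 9 (54.6 CPM). Cluster 7 held 90 cells that met the contractile rule, and cluster 9 held 2. Cluster 6 (1136 cells, led by C1orf61, LINC00461 and PTCHD1) had the highest LAMA1, 131 CPM, and the lowest ITGB1 of all clusters, 180.3 CPM. ITGA2 in cluster 6, at 36.6 CPM, was close to its level in cluster 3, 37.0 CPM.

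**Figure D4:**
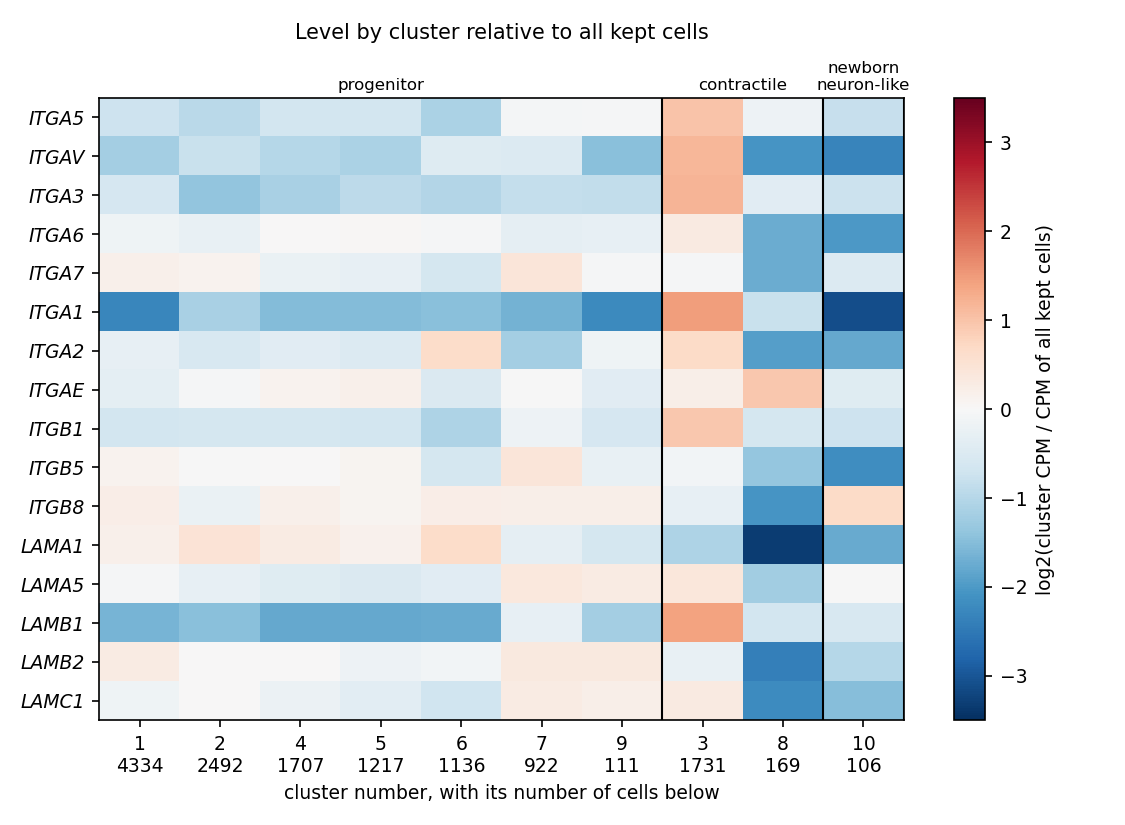
Level of the 16 named members in each of 10 clusters, as log2 of the cluster's CPM over the CPM of all kept cells (colour scale), with the clusters grouped by pooled score and the number of cells under each cluster number. Cluster 3 was high in ITGAV, ITGB1, ITGA1 and LAMB1. Cluster 8 was high in ITGAE and lay below all kept cells in all laminin chains shown. Its LAMB1, at 34.5 CPM, was still above the pooled level of progenitor cells, 22.1 CPM.

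The partners of these chains were counted from lists of genes with a known role. Of 23 linkers that join integrins to actin, 13 were at least 2-fold higher in contractile cells (8.04% of all genes compared were) and none lower (25.5% of all), with a median ratio of 2.05 beside 0.76. The actin scaffold TNS1 had a ratio of 5.56, the actin crosslinker ACTN1 of 4.83 and the Src substrate BCAR1 of 4.75. The lowest linkers at 10 CPM or more were SRC (0.603), TNS3 (0.756) and the focal adhesion kinase PTK2 (0.894), and all of these exceeded 1 by UMIs per cell. Talin (TLN1), which switches integrins on, went from 62.0 to 176 CPM. In newborn neuron-like cells 18 linkers were compared, of which 5 were at least 2-fold lower (11.2% of all genes compared were) and none higher.

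Of 9 other matrix receptors, 4 were at least 2-fold higher in contractile cells (8.04% of all genes) and 1 lower (25.5% of all), the laminin receptor BCAM, which went from 5.40 to 2.14 CPM. The hyaluronan receptor CD44 went from 0.483 to 17.5 CPM, a ratio of 36.2 (29.9 to 44.3). The collagen receptor DDR2 had a ratio of 4.39 and the proteoglycan SDC2 of 2.33. SDC1 (0.657) was lowest at 10 CPM or more and had a ratio of 1.65 by UMIs per cell. DDR1 (1.44) was also among the 3 lowest there. Dystroglycan (DAG1), a laminin receptor outside the integrin family, was at 57.6 and 56.5 CPM, with a ratio of 2.46 by UMIs per cell. Of the 7 compared in newborn neuron-like cells, 3 were at least 2-fold lower (11.2% of all genes) and none higher.

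Of 17 basement membrane partners and integrin ligands, 7 were at least 2-fold higher in contractile cells (8.04% of all genes) and 2 lower (25.5% of all), with a median ratio of 1.28. Highest were the ligands SPP1, from 8.80 to 580.5 CPM, TNC, from 3.26 to 58.9 CPM, and CYR61, from 47.1 to 372 CPM. CYR61 belongs to the same protein family as CTGF, a gene of the rule. The collagen IV chains differed among themselves, with ratios of 2.08 for COL4A1 and 1.204 for COL4A2 but 0.421 (0.411 to 0.431) for COL4A5 and 0.270 (0.262 to 0.278) for COL4A6. By UMIs per cell COL4A6 stayed below 1 (0.677) and COL4A5 did not (1.05). NID1, which links laminin to collagen IV, was at 41.6 and 35.7 CPM, a ratio of 0.858 that became 2.15 by UMIs per cell. In newborn neuron-like cells 10 of the 14 compared were at least 2-fold lower (11.2% of all genes) and none higher, among them FN1 (0.331) and COL4A1 (0.444).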

How the data were processed

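The library was made with the 10x Chromium 3′ HT kit. Per the labels and the study's methods, the authors deposited raw UMI counts per gene and barcode from Cell Ranger 7.0.1 at default settings on GRCh38, with no normalization. The annotation version and counting strand were not given in the sources used here. Default settings of this version include reads in introns, so long genes such as LAMA1 can gain UMIs from unspliced RNA.

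From these counts, cells were filtered and assigned to states as described, UMIs were summed per state, and exact intervals were computed (Python 3.11.15, scipy 1.17.1). The calculation was tested on simulated counts. Clusters came from scanpy 1.11.5 (2000 variable genes, 30 components, 20 neighbours) and leidenalg 0.10.2 at resolution 0.5. No doublets were removed, and an alternative left out the 8% highest Scrublet scores. In all, 14 alternative settings were tried, covering the scale, depth, state limits, filters and minimum of UMIs. Named members reached 10 CPM in any state, and other members were named beside their group. Partner genes were the 3 highest and 3 lowest of each list at 10 CPM or more, with a few added by role. The members, lists and rules were chosen with earlier results of these data known. Gene spans came from GENCODE 44. The other genotypes were not analysed here. The values of 1 member are not reported here, though it is part of the counts and sums.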

Additional observations from a re-analysis of the deposited data

Results flagged for a closer look

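The 94 barcodes with more than 10000 detected genes were left out by the filter and entered none of the comparisons above. They held a median of 103907 UMIs, and 80 of them (85.1%, 76.3 to 91.6%) met the contractile rule. Their integrin chains summed to 1588.5 CPM and their laminin chains to 485.8 CPM, above the levels of progenitor cells (654 and 312 CPM) and near those of the contractile cells that were kept (1558 and 439 CPM). These values stand out because they come from data that those comparisons did not use. Whether these barcodes hold more than 1 cell was not tested.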

How the results depend on the processing

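By UMIs per cell the members at least 2-fold higher in contractile cells numbered 23 and those lower 0, against 12 and 4 by CPM (46.5% and 4.83% of all genes, against 8.04% and 25.5%). Thinning to 5000 UMIs, with 23 members compared, gave 7 higher and 2 lower (LAMA1 and LAMB4; 6.6% and 20.7% of all genes), division by the median ratio of all genes gave 2 lower (15.6% of all), and dropping the quality filter gave 2 lower (24.6% of all). In newborn neuron-like cells the 5 lower members became 3 after division by the median (8.95% of all genes), 0 among cells with 20000 to 60000 UMIs (19 newborn neuron-like cells, 5.78% of all genes) and, with the neuronal limit at 3, the call was lost by all 5 and made for 1 other member, ITGA1 (5.17% of all genes). Among the cells with 20000 to 60000 UMIs 10 members were compared, and ITGA2, with too few UMIs there, had a ratio of 0.441. Thinning and the depth range leave fewer UMIs, and other causes were not tested. No named member called 2-fold higher or lower changed direction in CPM. The named members called higher in contractile cells all had smaller ratios among cells with 20000 to 60000 UMIs. These were 5.84 for ITGA1, 5.20 for LAMB1, 4.08 for ITGA3, 3.52 for ITGAV, 2.74 for ITGA5, 2.59 for ITGB1 and 1.96 for ITGA2. LAMA1 was at 0.389 there, beside 0.358 in all kept cells. Of the named members, ITGA7, ITGB5 and ITGB8 crossed 1 in contractile cells under other CPM settings, and ITGB1, ITGB8 and LAMB1 in newborn neuron-like cells. The LAMB1 to LAMA1 values at 20000 to 60000 UMIs (0.186 and 4.75) were added after seeing the data. No paired analysis was possible because there was 1 library, and no replicate could be left out. Members with few UMIs, and the 131 newborn neuron-like cells, set the precision.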
